A study of Homo sapiens with 19 samples.

Results

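The receptors NOTCH1, NOTCH2 and NOTCH3, the ligands DLL1, DLL3 and JAG1, and the targets HES1, HEY1, HEY2 and NRARP were followed through the earliest phase of brown adipocyte (BA) induction of human embryonic stem cells (hESCs). These 10 genes were taken by symbol, through the RefSeq transcript that the array design gives for each probe. They were 10 of 20503 genes named on the array, were measured by 13 of 50683 probes, and all 10 were among the 16694 genes bright enough to be tested.

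Notch receptors are cut when a DSL ligand on a neighbouring cell binds them, first by an ADAM protease and then by the γ-secretase complex. The freed intracellular domain joins the DNA-binding protein RBPJ and a Mastermind coactivator and switches on target genes, among them the HES and HEY repressors and NRARP, which feeds back on the receptor domain. The pathway is known for choices of fate in stem cells, for arterial endothelium and for the segmentation clock of the presomitic mesoderm, where HES genes oscillate and DLL1 and DLL3 are used.

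The cells were KhES-3, an established hESC line, and each array held total RNA from cells collected at 1 time point of BA induction. All 19 samples had the same treatment: cells were placed in low-attachment dishes in serum-free BA differentiation medium with IGF-II, BMP4, VEGFA, KITLG, FLT3LG and IL-6. The groups were BA induction after 3, 4, 6, 8, 10 and 12 h (slide 1), after 14, 16, 20, 24, 28, 32, 36 and 42 h (slide 2) and after 48, 54, 60, 66 and 72 h (slide 3). No array of uninduced cells was analysed here, so every change is relative to the 3 h array or to the run of later times. The labels place the parent cells on irradiated mouse embryonic fibroblasts (MEFs), whereas the study's methods describe maintenance without feeders.

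Each time point had 1 array, so no value has a replicate error, and trends were tested by limma across the 19 arrays. Between 49.5% and 64.7% of probes on an array were well above background in the scanner's own call. The 14 h array had the fewest (49.5%) and the most flagged spots (1.32%), and the 16 h array came next (52.0% and 0.986%). The lowest signals of NRARP, DLL3, JAG2, HES3, HES5, HEYL, LFNG and MFNG given below lay on these 2 arrays. Without both arrays, which were left out together after the data had been seen, 3 of the 10 genes rose with time and 4 fell by the slope defined below, NRARP being added (limma adjusted p = 0.049), against 21.5% and 33.8% of all genes. Signals are given after each array was scaled to a common 75th percentile of 725, and levels of different genes are not set against each other because probes differ in brightness. Slides followed each other in time, so a step between 12 and 14 h or between 42 and 48 h cannot be told apart from a step between slides. In a bulk RNA sample, fewer cells of a type and less RNA per cell cannot be told apart.

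The labelled cell type was checked against 6 pluripotency genes (POU5F1, SOX2, NANOG, LIN28A, DPPA4 and ZFP42), and all 6 were well above background on all 19 arrays. POU5F1 fell by 0.38 on the log2 scale from the mean of 3, 4 and 6 h to that of 60, 66 and 72 h (adjusted p = 0.00012, limma slope), ZFP42 fell by 0.90 (adjusted p = 5.9e-05) and LIN28A fell by 0.35 (adjusted p = 0.0039). SOX2, DPPA4 and NANOG were not called, with changes of -0.08, -0.13 and 0.22. None of the 3 falls was called with the slide as a block (limma adjusted p = 0.21, 0.38 and 0.61). Of 6 fibroblast genes, THY1, COL1A1 and COL1A2 were well above background on all 19 arrays, DCN was so on 9, and COL3A1 and LUM on 1 each. The summed signal of these 6 genes lay between 27347 and 48020, with THY1 the brightest probe (33705 of 48020 at 72 h). This sum is not a measure of fibroblasts, and a part of such cells in the values below was not tested.

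The promoters of the targets were read from RefSeq (GRCh38.p14), 250 bases before each start, and searched for GTGGGAA on either strand, the core of the DNA element that RBPJ binds. It was present in 5.43% of 35116 promoters of that length. Among the targets it was found in HES1, HEY2, HES4, HES5 and HEYL and not in this window of NRARP or HES7. It was also not found in those of HES2, HES3, HES6, LFNG, NOTCH1, NOTCH2, NOTCH3 or JAG1. HES5 held it at 2 places, and 0.174% of all promoters held it more than once. The E-box CACGTG, a letter run bound by many helix-loop-helix proteins, was in none of these windows and in 6.34% of all. Entries for DLL1, DLL3, HEY1 and the further target DTX1 were not used here. The last 120 bases before the start are shown for HES1 (chr3:194136028-194136147, plus strand), HES4 (chr1:1000098-1000217, minus strand) and HES5 (chr1:2530264-2530383, minus strand), each written 5′ to 3′ along the gene, since these 3 genes hold the core at nearly the same distance and their transcripts took different courses. Capitals mark the core.
HES1: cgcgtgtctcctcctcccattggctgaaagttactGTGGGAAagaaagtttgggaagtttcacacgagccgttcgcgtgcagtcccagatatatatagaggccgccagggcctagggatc
HES4: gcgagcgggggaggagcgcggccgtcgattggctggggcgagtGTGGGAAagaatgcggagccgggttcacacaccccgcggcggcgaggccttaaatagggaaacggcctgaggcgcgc
HES5: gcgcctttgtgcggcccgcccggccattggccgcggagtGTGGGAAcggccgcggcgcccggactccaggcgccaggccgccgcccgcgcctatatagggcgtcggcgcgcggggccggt
The core began 85 bases before the start in HES1, 77 in HES4 and 81 in HES5. The second core of HES5 lay 224 bases before its start on the other strand, and those of HEY2 and HEYL lay 213 and 178 bases before theirs. A match of letters is a description of the window and not a binding site shown in these cells.

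Over the 19 arrays, 3 of the 10 genes rose with time (DLL1, HEY2 and, by its brighter probe, NOTCH1), 3 fell (NOTCH2, NOTCH3 and HEY1) and 4 did not pass the test (DLL3, JAG1, HES1 and NRARP), by limma's slope on hours with Benjamini-Hochberg adjustment over all probes at 0.05. Of all genes tested, 21.3% rose and 32.7% fell under the same rule, so these counts lie near the background. The median slope of the 10 genes was -1.8e-05 log2 per hour, against -0.0012 over all genes. With 1 array left out the median of the 10 ran from -0.0028 to 0.0041, so no difference from all genes is read from it. It was -0.0048 with the array median, -0.0075 with the spike-in RNA and -0.010 over 3 to 54 h. A curve with a cubic term, which also finds a fall followed by a rise, was called for 8 of the 10 genes (all but JAG1 and HES1) and for 79.5% of all genes. With the slide as a block, 0 of the 10 genes rose, 1 (NOTCH2) fell and 5 kept a called curve, against 4.22%, 5.33% and 36% of all genes. The curves of NOTCH1, DLL1 and HEY2 were not called with the block (limma adjusted p = 0.12, 0.084 and 0.11). That of NOTCH1 was also not called under scaling to the array median (limma adjusted p = 0.15). Under the scaling to the array median or to the spike-in RNA, 1 gene rose, DLL1 in both, against 9.78% and 3.59% of all genes.

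**Figure D1:**
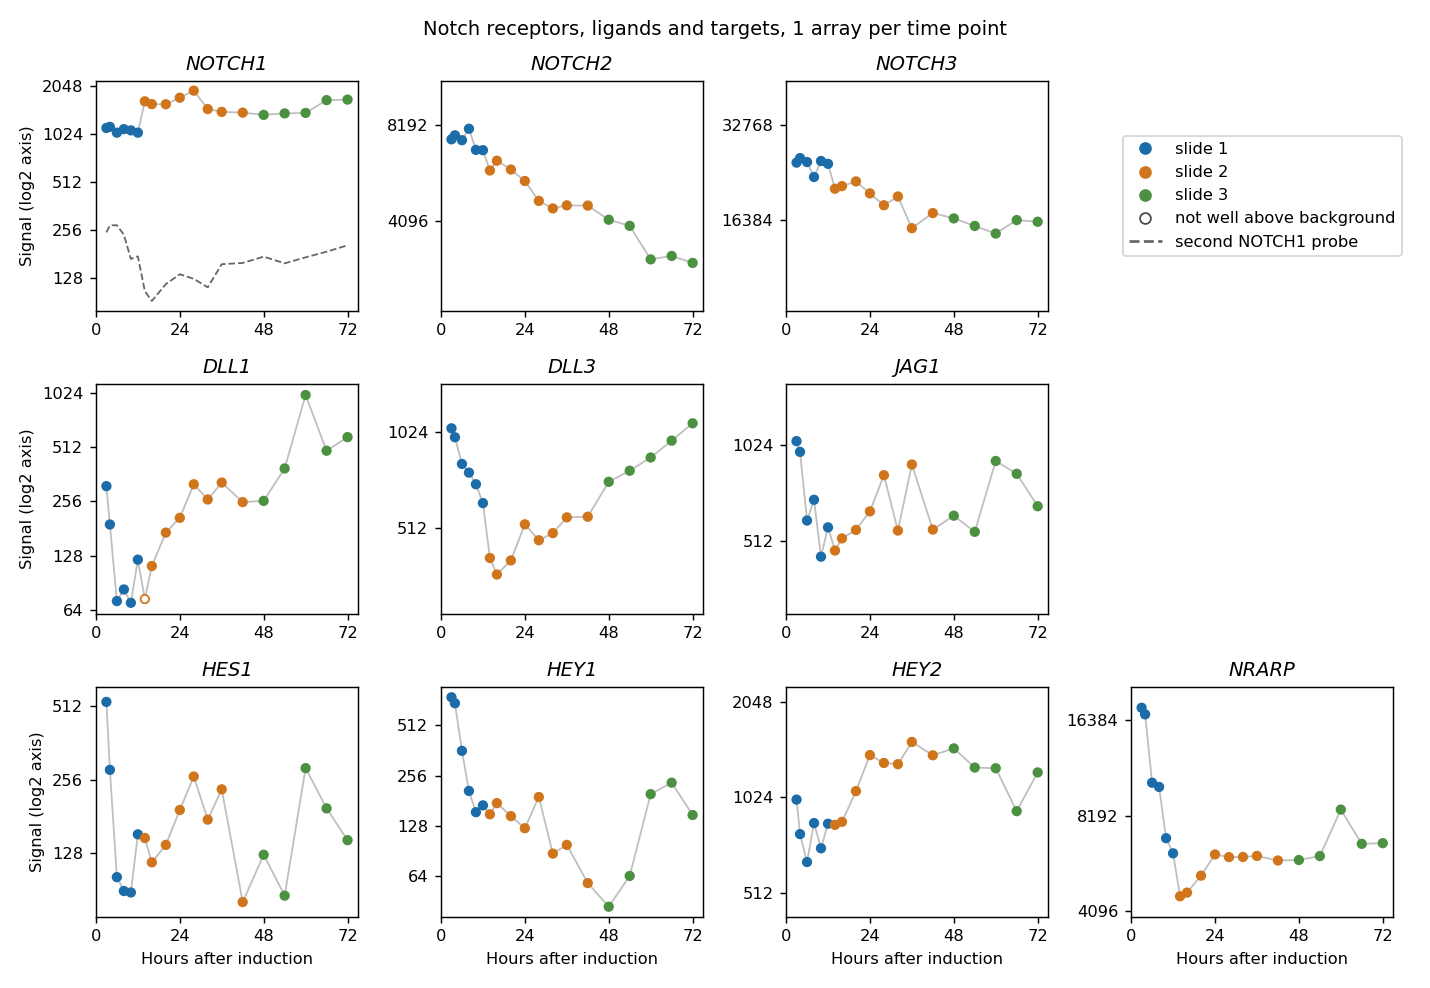
Signal of each gene (brightest probe, scaled to a common 75th percentile, log2 axis) against hours after induction, 1 point per array, coloured by slide; the open point is the array on which DLL1 was not well above background and the dashed line is the second NOTCH1 probe. NOTCH2 ran from 7409 at 3 h to 3026 at 72 h, while NRARP dropped from 17903 at 3 h to 4569 at 14 h.

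NOTCH2, by its brighter probe, fell from slide to slide, and NOTCH3 fell by a smaller fold. The second NOTCH2 probe changed by -0.68 log2 between the early and late windows, and NOTCH3 by -0.67. NOTCH1, by its brighter probe, was higher on slides 2 and 3 than on slide 1.

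NOTCH2 read 7409, 7629, 7362, 7999, 6863 and 6849 at 3, 4, 6, 8, 10 and 12 h on slide 1. On slide 2 it read 5911, 6345, 5952, 5478, 4742, 4491, 4591 and 4583 from 14 to 42 h, and on slide 3 it read 4138, 3958, 3104, 3183 and 3026 from 48 to 72 h. The signals of the 3 slides did not overlap, and the last array of each slide was lower than its first. Its slope was -0.020 ± 0.0013 log2 per hour (SE, n = 19 arrays; limma adjusted p = 7.8e-10), which gave a fall of 2.41-fold between the early and late windows (means of 3 arrays each). Blocked by slide, it sloped by -0.019 ± 0.0031 (limma adjusted p = 0.0026). The second NOTCH2 probe, made against another transcript, fell by 0.68 on the log2 scale (limma adjusted p = 0.000125 for its slope), a call lost under the slide block (-0.0084, limma adjusted p = 0.32). NOTCH2 has near-identical partial copies (the NOTCH2NL genes), and whether these probes also read them was not tested.

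NOTCH3 read 24867, 25696, 24974, 22408, 25157 and 24648 on slide 1. It then read 20576, 20978, 21702, 19897, 18257, 19455, 15465 and 17258 on slide 2 and 16600, 15716, 14874, 16400 and 16199 on slide 3. It was level on slide 1, lower on slide 2 with all 8 arrays below the 6 earlier ones, and level again on slide 3. The slope was -0.011 ± 0.0015 log2 per hour (limma adjusted p = 4.1e-06), a fall of 1.59-fold (-0.67 log2) from the early to the late window, and was not called with the slide as a block (-0.0087, limma adjusted p = 0.12). The size of the fall moved with the processing, from -0.36 log2 with normexp and quantile normalization to -1.26 under scaling to the spike-in RNA, and that of NOTCH2 likewise from -0.97 to -1.85.

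NOTCH1 by its brighter probe lay between 1040 and 1131 on slide 1, between 1390 and 1907 on slide 2 and between 1345 and 1676 on slide 3. The step fell at the change from slide 1 to slide 2, where it read 1040 at 12 h and 1635 at 14 h. Its slope was 0.0065 ± 0.0025 log2 per hour (limma adjusted p = 0.038), but the slope was not called when any single array at 3, 4, 6, 8, 10, 12, 66 or 72 h was left out (over all arrays left out, adjusted p = 0.021 to 0.077) or when probes of any brightness were tested (limma adjusted p = 0.068), and it turned to -0.00052 with the slide as a block. The dimmer NOTCH1 probe, at 247 at 3 h, went the other way at the same slide change, from 175 at 12 h to 106 at 14 h, and its slope was -0.0020 ± 0.0047 (limma adjusted p = 0.75). The probes disagreed, so no direction is given for NOTCH1 as a gene, and the mean of its probes gave a slope of 0.0023 (limma adjusted p = 0.32).

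**Figure D2:**
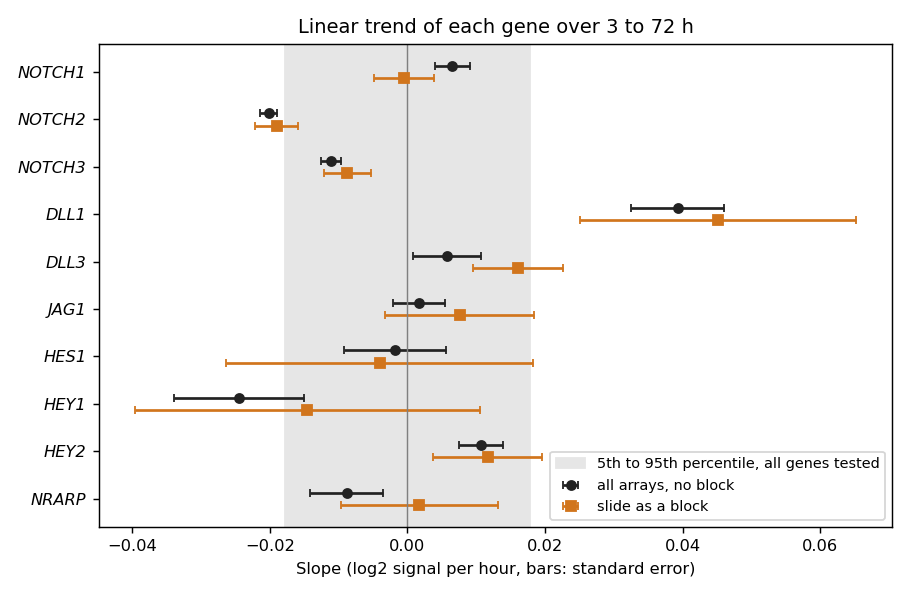
Slope of each gene in log2 signal per hour with its standard error, from all 19 arrays without a block (circles) and with the slide as a block (squares); the grey band spans the 5th to 95th percentile of all genes tested, -0.018 to 0.018. The slope of NOTCH2 was -0.020 without and -0.019 with the block, and the block gave a wider error for NOTCH2, HEY1 and DLL1 alike.

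Among the ligands, DLL1, the Delta ligand used in somite formation, ended above its starting level after an early trough, DLL3 returned to near its starting level under the main scaling, and JAG1 had no called trend. DLL3 is a Delta family member that acts mainly inside the cell and lowers signalling, and JAG1 is the main Jagged ligand.

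DLL1 read 311, 191 and 71.9 on the first 3 arrays and stayed between 70.3 and 122 from 6 to 16 h, with 73.8 at 14 h, the one array on which it was not well above background. It then read 172, 208, 318, 262, 325 and 254 from 20 to 42 h, and 258, 389, 992, 488 and 580 from 48 to 72 h. The highest array, at 60 h, was 2.55-fold above that at 54 h on the same slide. The slope was 0.039 ± 0.0067 log2 per hour (limma adjusted p = 8.1e-05) and the late window was 4.04-fold above the early one, a change of 2.01 on the log2 scale that was 0.90 between 72 and 3 h alone and 1.43 without the 6 h array. The scatter about its cubic curve was 0.66 log2 (SD). The slope was not called with the slide as a block (0.045 ± 0.020, limma adjusted p = 0.17).

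DLL3 read 1053, 987, 814, 764, 702 and 613 on slide 1, each array below the one before. It was lowest at 16 h with 365, within slide 2 (412, 365, 405, 525, 468, 493, 553 and 555), and read 715, 775, 853, 964 and 1092 on slide 3, each array above the one before. The straight slope was 0.0058 ± 0.0049 (limma adjusted p = 0.33), while the cubic curve was called (limma adjusted p = 1.5e-06) with a scatter about it of 0.19 log2. The late minus early change was 0.03 log2 under the main scaling, -0.31 under scaling to the array median and -0.56 under that to the spike-in RNA.

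JAG1 read 1052 and 973 at 3 and 4 h and 592 at 6 h, was lowest at 10 h with 455, and then moved between 476 and 911 with no steady direction. Its higher later arrays were those at 28 h (822), 36 h (888), 60 h (911) and 66 h (830), and the 32 and 42 h arrays beside the 36 h one read 550 and 554. Its slope was 0.0017 ± 0.0038 log2 per hour (limma adjusted p = 0.73), and its cubic curve was not called (limma adjusted p = 0.18). The curve was called with the array median as the scaling (limma adjusted p = 0.038) and over 3 to 54 h (limma adjusted p = 0.033).

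Of the 4 targets, 3 were lower at 10 and 12 h than at 3 h by at least 1 log2, and their later courses differed. HES1 and HEY1, helix-loop-helix repressors, and NRARP were highest at 3 h. HEY2, the HEY gene best known from arterial endothelium and heart, was highest at 36 h.

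NRARP read 17903, 17068, 10402, 10089, 6960 and 6235 on slide 1, each array below the one before, and reached its lowest level, 4569, at 14 h. From 24 to 54 h it lay between 5919 and 6185, a narrow plateau across a change of slide, then read 8560, 6678 and 6712 on the last 3 arrays. All 3 late arrays lay below the first 4 arrays. The straight slope over all arrays was -0.0088 ± 0.0053 log2 per hour (limma adjusted p = 0.17), and on the scale of log2 hours the slope was -0.25 per doubling (limma adjusted p = 0.0045). It was also called under scaling to the spike-in RNA (-0.016, limma adjusted p = 0.017) and over 3 to 54 h (-0.020, limma adjusted p = 0.042). The late window was 2.02-fold below the early one, a change of -1.02 log2 that ran from -0.75 with normexp and quantile normalization to -1.60 under scaling to the spike-in RNA. A second NRARP probe was well above background on 2 of 19 arrays and was not tested.

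HEY1 read 754, 694, 360, 207, 154 and 170 on slide 1, then 150, 175, 146, 124, 190, 87.2, 98.4 and 58.1 on slide 2. On slide 3 it read 41.9, 64.1, 198, 232 and 149, so that its lowest array (48 h) and a rise of 3.09-fold from 54 to 60 h lay on one slide. Its slope was -0.024 ± 0.0095 log2 per hour (limma adjusted p = 0.037), and the late window was 3.02-fold below the early one. This change of -1.60 log2 was -2.18 under scaling to the spike-in RNA and -2.34 between 72 and 3 h alone. The slope of HEY1 was not called when the array at 3, 4, 6, 42, 48 or 54 h was left out (over all arrays left out, adjusted p = 0.011 to 0.092), nor when probes of any brightness were tested (limma adjusted p = 0.060), nor with the slide as a block (-0.015, limma adjusted p = 0.76).

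HES1 started at 534 and 281 on the 3 and 4 h arrays and read 102, 89.8 and 88.6 on the next 3. The 28 h and 36 h arrays, with 264 and 234, stood above the 32 h array between them, with 176. The 42, 48 and 54 h arrays read 80.9, 126 and 86.0, and the last 3 read 286, 196 and 145. The scatter of HES1 about its cubic curve, 0.77 log2 (SD), was the widest of the 10 genes. Neither its slope (-0.0018 ± 0.0074, limma adjusted p = 0.86) nor its cubic curve (limma adjusted p = 0.80) was called.

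HEY2 read 1007, 784, 640, 849, 707 and 845 on slide 1, rose from 838 at 14 h to 1390 at 24 h and 1529 at 36 h on slide 2, and read 1459, 1270, 1264, 926 and 1226 on slide 3. The arrays from 24 to 60 h all lay above the first 8 arrays. The slope was 0.011 ± 0.0032 log2 per hour (limma adjusted p = 0.0095), a rise of 1.42-fold between the windows under the main scaling, which was not called under the scaling to the array median or to the spike-in RNA and changed sign for the windows under the latter.

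The times within a slide can be compared without a change of slide. This comparison, that of the 3 h with the 12 h array and that of the 54 h with the 60 h array were chosen after the values had been seen. Within slide 1 (3 to 12 h), 3 of the 10 genes fell, DLL3, HEY1 and NRARP, against 4.3% of all genes tested, and 0 rose, against 2.69%. The slopes on slide 1 were -0.084 ± 0.0098 log2 per hour for DLL3 (limma adjusted p = 0.017), -0.28 ± 0.038 for HEY1 (limma adjusted p = 0.023) and -0.18 ± 0.018 for NRARP (limma adjusted p = 0.016). No gene was called without the 3, 4 or 10 h array, and 1 was without the 12 h array. Under scaling to the array median 3 of the 10 genes fell within slide 1, against 4.73% of all genes. Under that to the spike-in RNA 2 fell, against 1.78%. Within slide 2 (14 to 42 h), 2 genes rose, DLL1 and HEY2, against 4.85% of all genes, and 1 fell, NOTCH2, against 3.3%. These calls, at adjusted p = 0.046, 0.045 and 0.042 by limma, lay close to the threshold, and 0 rose when the 14, 16, 20, 32 or 36 h array was left out. The fall of NOTCH2 within slide 2 was likewise lost without the 14, 16, 20, 24, 32 or 36 h array. Neither rise was called under scaling to the array median or to the spike-in RNA, and 0 of the 10 genes fell under the latter, where 0.0612% of all genes rose and 0.0857% fell. Within slide 3 (48 to 72 h), 0 of the 10 genes rose and 0 fell, against 1.27% and 2.91% of all genes.

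Between the 3 h and the 12 h array, 4 of the 10 genes were lower by at least 1 on the log2 scale, against 1.99% of 16453 genes. HEY1 was 4.44-fold lower, HES1 3.48-fold, NRARP 2.87-fold and DLL1 2.55-fold. JAG1 was 1.87-fold lower, DLL3 1.72-fold and HEY2 1.19-fold, and NOTCH1, NOTCH2 and NOTCH3 were 1.07-fold, 1.08-fold and 1.01-fold lower by their brightest probes. The second NOTCH1 probe was 1.41-fold lower, and the second NOTCH2 probe was higher, its 3 h signal being 0.887 of that at 12 h. Each is the ratio of 1 array to 1 other and has no test.

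Between the 54 h and the 60 h array, both on slide 3, 3 of the 10 genes were higher by at least 1 on the log2 scale, against 1.04% of 16560 genes. HES1 was 3.33-fold higher, HEY1 3.09-fold and DLL1 2.55-fold. These 3 had the widest scatter about the cubic curve of the 10 genes (0.77, 0.62 and 0.66 log2, SD). Neither this share of all genes nor that between 3 and 12 h was taken among genes of like scatter. JAG1 was 1.67-fold higher, NRARP was 1.40-fold higher, DLL3 was higher by 0.14 log2, NOTCH1 was 1.01-fold higher, and NOTCH3, HEY2 and NOTCH2 were at 0.946, 0.995 and 0.784 of their 54 h signal. At 66 h, HES1 read 196, DLL1 488 and NRARP 6678, all below their 60 h arrays, whereas HEY1 read 232. No second array was made at 60 h.

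**Figure D3:**
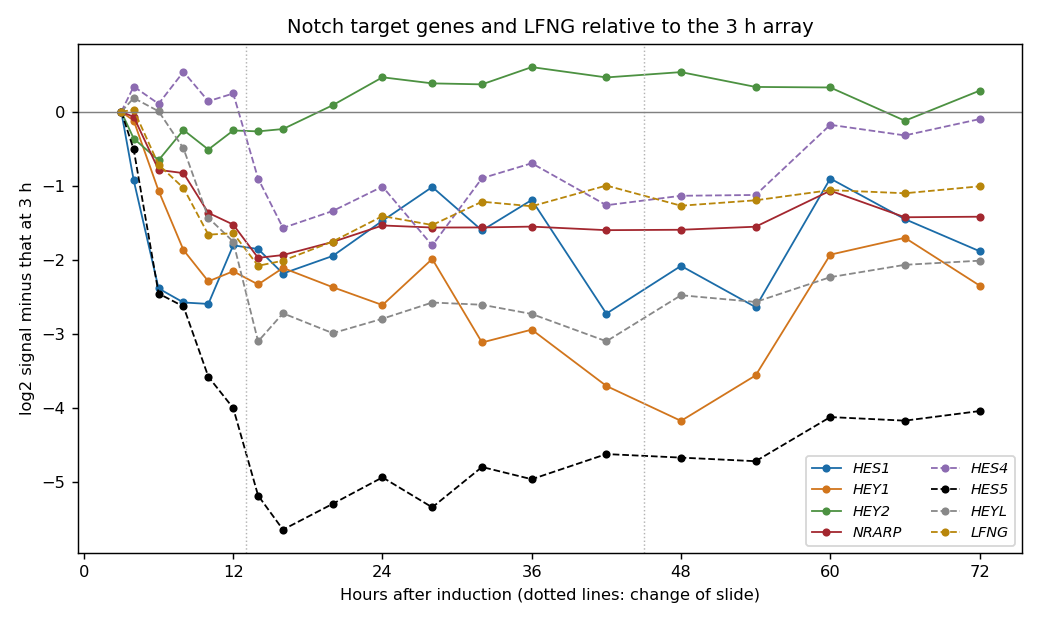
log2 signal minus that of the 3 h array for the targets HES1, HEY1, HEY2 and NRARP (solid lines) and for HES4, HES5, HEYL and LFNG (dashed lines), 1 array per point; dotted vertical lines mark the change of slide. LFNG is drawn by its brighter probe only. HES5 went from 3289 at 3 h to 66.1 at 16 h, the deepest fall among the 8 genes plotted, whereas HEY2 stayed within 1 log2 unit of its 3 h level.

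A list of 47 other genes of the pathway was read in the same way, and 44 of them were tested. Of these, 6 rose, 16 fell and 22 were not called, beside the 21.3% and 32.7% of all genes given above, with a median slope of -0.0021 log2 per hour. With the slide as a block 5 rose (JAG2, ADAM10, MFNG, MAML3 and DTX2) and 0 fell, beside 4.22% and 5.33% of all genes. All counts are by the brightest probe, and second probes of ADAM10, MAML3, APH1A, HES6 and LFNG differed from it: those of ADAM10, MAML3 and APH1A had no called slope. DLK1 was not called by its brightest probe (limma adjusted p = 0.11) and rose by the other (limma adjusted p = 0.032). DLL4, the ligand of sprouting endothelium, was not well above background on any array, HES7, the clock repressor of the presomitic mesoderm, was so on 1, and KDM5A was not tested either.

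The remaining receptor, NOTCH4, best known from endothelium, fell from 846 at 3 h to 234 at 72 h, with all arrays from 14 h below all earlier ones. From the early to the late window it fell by 2.05 on the log2 scale (limma adjusted p = 1.6e-07 for the slope). Among the other ligands, DLK2, a non-canonical ligand, fell by 1.59 log2 (limma adjusted p = 0.00053). JAG2 dipped to 195 at 16 h and ended at 694, and its straight slope was 0.0095 ± 0.0046 (limma adjusted p = 0.093) whereas its cubic curve was called (limma adjusted p = 1.8e-05).

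Of the other targets, HES5, a Hairy/Enhancer-of-split repressor used as a Notch readout in neural progenitors, read 3289, 2313, 601, 533, 276 and 206 on slide 1. It was lowest at 16 h with 66.1 and read 189, 183 and 200 on the last 3 arrays, so all late arrays lay below all arrays of slide 1. Its slope was called within slide 1 (-0.45 ± 0.051 log2 per hour, limma adjusted p = 0.017) and its cubic curve over all arrays (limma adjusted p = 5.7e-07), but not its straight slope (limma adjusted p = 0.087). HEYL, the third HEY gene, read 579 at 3 h, 172 at 12 h and 67.7 at 14 h, on the next slide. It fell by 2.17 log2 from the early to the late window (limma adjusted p = 0.045 for the slope). With the slide as a block its slope was -0.0031 (limma adjusted p = 0.92). HES4, whose promoter is shown beside those of HES1 and HES5 and which was singled out after its values were seen, did not share the early fall: it read between 25863 and 37591 on slide 1, between 7414 and 15984 on slide 2, and 22896, 20735 and 24150 at 60, 66 and 72 h.

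In the wider HES family, HES3 went from 242 at 3 h to 26.9 at 14 h, where it was not well above background, and to 1117 at 60 h, 4.26-fold above the 54 h array. It was the only one of these 44 genes with a rise of at least 1 log2 between those arrays, against 1.04% of all genes. ITCH, a ubiquitin ligase, was the only one lower by as much (-1.12 log2), against 1.01% of all genes. The late window of HES3 was 1.86 log2 above the early one (limma adjusted p = 0.0017 for the slope). HES6, which counteracts HES1 in neural cells, fell by 1.21 log2 by its brightest probe (limma adjusted p = 3.4e-05) and by 0.72 by another (limma adjusted p = 0.041), while its remaining probes changed by 0.03 and -0.26 and had no called slope (limma adjusted p = 0.89 and 0.50).

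Within slide 1, 8 of the 44 other genes fell, namely HES2, HES3, HES5, HES6, HEYL, LFNG, JAG2 and DLK2, and ITCH rose, against the 4.3% and 2.69% of all genes given above. On the 12 h array 6 of them were lower than on the 3 h array by at least 1 log2, against the 1.99% of all genes given above, and 2, ITCH and MAML2, were higher by as much, against 1.85% of all genes. The lower ones included HES5 by 16.0-fold, HES3 by 4.20-fold, HEYL by 3.37-fold and LFNG, the Fringe enzyme that tunes which ligand a receptor prefers, by 3.11-fold. By this probe LFNG read 5880 at 3 h and 1393 at 14 h and lay between 2431 and 2951 from 32 to 72 h. A dimmer LFNG probe, made against another transcript, had no such fall, with its 3 h signal at 0.961 of that at 12 h. Its curve was not called (limma adjusted p = 0.23), so no direction is given for LFNG as a gene. Within slide 2, 5 rose (JAG2, DTX1, HES3, LFNG and MFNG) and 0 fell, beside 4.85% and 3.3% of all genes. Within slide 3 MIB2 rose and ITCH fell, beside 1.27% and 2.91% of all genes. For these 44 genes, calls within a slide were not tested with 1 array left out or under another scaling. The falls of DLL3, HEY1 and NRARP within slide 1 were all lost without the 3 h array. Under scaling to the spike-in RNA, 0.0612% of all genes rose within slide 2.

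None of the 9 genes of receptor cleavage moved by 1 log2 between the early and late windows. Of these 9, ADAM10 rose and 4 fell (FURIN, PSEN2, NCSTN and APH1A), beside 21.3% and 32.7% of all genes. None of the 4 falls was called with the slide as a block (limma adjusted p = 0.097, 0.15, 0.069 and 0.25). PSEN2, a catalytic subunit of γ-secretase, fell by 0.68 log2 (limma adjusted p = 6.4e-05), and NCSTN, its substrate receptor, fell by 0.65 (limma adjusted p = 7.1e-05). Of 5 genes that add sugars to the receptor, MFNG and RFNG rose and POGLUT1 fell, beside the same 21.3% and 32.7% of all genes. MFNG, a second Fringe, lay between 61.2 and 221 and rose by 1.16 log2 (limma adjusted p = 2.2e-07), also with the slide as a block (limma adjusted p = 0.0023). RFNG rose by 0.60 log2 (limma adjusted p = 3.6e-05).

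Of 9 tested genes of the nuclear complex, MAML3 rose, MAML1, SNW1 and EP300 fell and 5 were not called. Of all genes, 21.3% rose and 32.7% fell. RBPJ, the DNA-binding partner of every Notch receptor, lay between 24237 and 37095 over the 19 arrays with a slope of -0.00070 ± 0.0023 log2 per hour (limma adjusted p = 0.82). EP300, a histone acetyltransferase, fell by 0.86 log2 (limma adjusted p = 0.00015), and MAML2, a Mastermind coactivator, had a change of 1.20 log2 that was not called (limma adjusted p = 0.060). Of 10 genes of ligand endocytosis and receptor turnover, DTX2 rose, 4 fell and 5 were not called, beside the same shares of all genes. ITCH read 568 at 14 h and 108 at 72 h and fell by 1.11 log2 between the windows (limma adjusted p = 0.0062), and DTX4, a Deltex ubiquitin ligase, fell by 1.26 log2 (limma adjusted p = 0.00023).

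**Figure D4:**
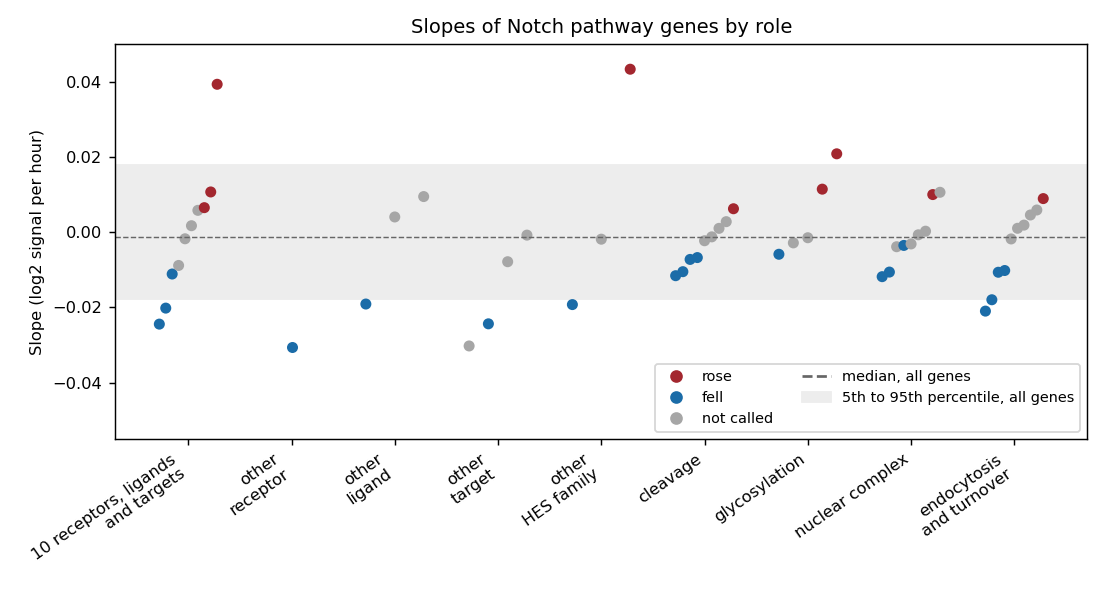
Slope in log2 signal per hour of each tested Notch pathway gene, grouped by role (10 receptors, ligands and targets at the left, the 44 others to the right); red rose, blue fell and grey was not called by limma. The dashed line is the median of all genes, -0.0012, and the grey band is their 5th to 95th percentile. DLL1 at 0.039, HES3 at 0.043 and MFNG at 0.021 lie above the band. NOTCH2, HEY1, NOTCH4, DLK2, HES5, HEYL, HES6, ITCH and DTX4 lie below it.

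Markers of cells in which these genes are used were read beside them, and beside the 21.3% of all genes that rose and the 32.7% that fell. Of 7 genes of the presomitic mesoderm, MESP1, MESP2 and TBX6 rose (by 1.74, 1.39 and 1.27 log2), RIPPLY2 fell by 1.63, TBXT was not called, MSGN1 was dim and RIPPLY1 was not well above background on any array. None of these calls held with the slide as a block (limma adjusted p = 0.071, 0.15, 0.62 and 0.15), and 1 gene rose under the scaling to the spike-in RNA. Their summed signal moved between 546 and 1839 with MESP2 the brightest probe, and its part in the rise of DLL1 was not tested. Of 8 endothelial genes KDR rose by 1.28 log2, TEK and EFNB2 fell by 2.27 and 0.95, both falls but not the rise of KDR held with the slide as a block (limma adjusted p = 0.21 for KDR), CDH5, GJA4 and SOX17 were not called, PECAM1 was well above background on 1 array and GJA5 on none. The summed endothelial signal, with KDR the brightest probe, lay between 5390 and 10006. Of the neuroectoderm genes PAX6 fell from a mean of 172 in the early window to a level not well above background on any array of the late one, and OTX2, the brightest probe of the list, fell by 1.19 log2, neither with the slide as a block (limma adjusted p = 0.96 and 0.47), while SOX1 and ZIC1 were not well above background on any array. Of 6 proneural genes, which HES repressors hold down in neural tissue, NEUROG3 rose by 0.62 log2, with a step of 0.90 at the change from slide 1 to slide 2 and a slope that turned to -0.0025 with the slide as a block (limma adjusted p = 0.67), and the others were too dim to be tested, with 3 of the 6 on no array well above background and a sum between 993 and 1871.

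The genes whose courses were most like each of the 9 members measured above background on every array were listed by Pearson's r over the 19 arrays among 13968 genes, as a description, since all points share the time order and the slides. HES5 came first for NRARP (r = 0.97), ahead of BAHD1 (0.949) and ZNF777 (0.939). HES1 was most like RIPK4 (0.894), KLF10 (0.884) and TRHDE-AS1 (0.853), and JAG1 was most like KLF10 (0.895), EGR2 (0.885) and GMCL1 (0.851). KLF10 and EGR2 are zinc-finger genes known to respond early to growth factors. HES1 and JAG1 had r = 0.813 with each other, rank 7 for HES1 and rank 21 for JAG1.
For the receptors, NOTCH2 was most like EBNA1BP2 (0.991), DCUN1D5 and GCLC, and NOTCH3 was most like ATP6V0C (0.981), MACF1 and TADA3. By its brighter probe only, NOTCH1 was most like CTRB2 (0.975), GALNT9-AS1 and PCDHGA7. DLL3 was most like CCDC85B (0.962), ZNF768 and LPCAT4, HEY1 was most like ISOC1 (0.932), TRIM25 and ZPR1, and HEY2 was most like SCARB2 (0.933), FAM47E and NSUN7. NOTCH2 and NOTCH3 had r = 0.917 with each other, rank 801 for NOTCH2 and rank 460 for NOTCH3.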

How the data were processed

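Total RNA of 19 samples was hybridised to 1-colour Agilent SurePrint G3 arrays, 1 array per time point. The authors deposited scanner output made with Agilent Feature Extraction 10.10.1.1 (submitters' processing notes; header build hg19), with a background-subtracted processed signal intensity per spot, and a value table. The deposited table was found to hold the same intensity times 1 factor per array (0.905 to 1.38), which brought the 75th percentile of every array to 725 to 726, blank where a spot was not well above background; which program applied it is not given in the sources used here. Control spots and outlier-flagged spots (0.632%) were left out, spots of a probe were averaged, and log2 signal minus the array's 75th percentile over probes was used. The deposited scanner flags gave the call above background, and no spot of any probe was saturated. Probes were named through RefSeq transcripts (28174 of 50683 probes, 20503 symbols; GRCh38.p14 table, names only), and the brightest probe stood for a gene.

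Of the probes, 32113 passed the scanner's background call on 5 or more arrays and were fitted in R 4.3.3 with limma 3.58.1: a slope on hours, a moderated F test of a cubic, and within each slide a slope (probes above background on at least 3 of its arrays), with Benjamini-Hochberg adjustment at 0.05 over all probes. The script was tested on simulated data. P-values measure the scatter of single samples about a curve, and nothing says whether they came from separate cultures. The number of arrays limits the precision. The early window is the mean log2 signal over the 3, 4 and 6 h arrays and the late window that over the 60, 66 and 72 h arrays.

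The members and gene lists were chosen with earlier results of these data known; 1 listed marker is not reported here. All 10 members were named; of the other pathway genes, each called gene with a late minus early change of at least 1 log2 and the 2 steepest of each role were named with values, and the others counted; RBPJ, HES4 and LFNG were added after their values were seen. For likeness, the 3 genes with the highest Pearson r were named. Alternatives were the scaling (median, spike-in RNA, 75th percentile over spots, the last chosen after seeing the data), normexp (offset 50) with quantile normalization on median pixels, the deposited table, filters, log2 hours, 3 to 54 h only, the slide block, the mean of probes, outliers kept, and each array left out.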

Additional observations from a re-analysis of the deposited data

How the results depend on the processing

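No paired analysis was possible because there was 1 array per time point. The scaling set the balance of directions: of the called genes 39.4% rose with the 75th percentile, 45.0% with that over spots, 17.5% with the array median, and 7.47% when scaled to the spike-in RNA, and the median late minus early change of all genes was -0.11, -0.05, -0.45 and -0.70 log2. With the array median 1 member and 3 other pathway genes rose, and 1632 of all genes; with the spike-in RNA 4 members fell, beside 44.5% of all genes, and 1 member, 2 other pathway genes and 600 of all genes rose. With the slide as a block 0 members rose and 1 fell, 5 had a cubic course, 0 other pathway genes fell, and over all genes 705 rose, 889 fell and 6013 had a cubic course. Within slide 2, 0 members rose and 2 fell with the array median, beside 3.19% and 4.48% of all genes, and 0 rose and 0 fell with the spike-in RNA, beside 0.0612% and 0.0857%. Within slide 3, 1 rose and 4 fell with the spike-in RNA, beside 0.325% and 73.9%. Leaving out 1 array gave 0 to 3 members that fell within slide 1, and 0 to 2 that rose and 0 to 2 that fell within slide 2.

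Several slopes changed sign. NOTCH1 turned to -0.000927 with the spike-in RNA and to -0.00052 with the block. DLL3 turned to -0.0016 with the spike-in RNA, to -0.032 per doubling of hours and to -0.00625 from 3 to 54 h. JAG1 turned to -0.0030 with the array median, -0.0057 with the spike-in RNA, -0.031 per doubling of hours and -0.0044 from 3 to 54 h, and lay between -2.43e-05 and 0.0042 with 1 array left out. NRARP turned to 0.0017 with the block, and HES1 lay between -0.0055 and 0.0041 with 1 array left out. The late minus early change turned to -0.0653 for NOTCH1 and to -0.0829 for HEY2 with the spike-in RNA, and for DLL3 to -0.31 under scaling to the array median and -0.56 under that to the spike-in RNA. The cause was not tested. The slopes of NOTCH2, NOTCH3, DLL1, HEY1 and HEY2 over the 19 arrays kept their direction in every alternative that tested them. Among these only NOTCH2 also kept its call throughout, and those of NOTCH3 and DLL1 were lost only with the slide as a block. The call of NOTCH2 within slide 2 did not hold throughout. Dim probes limit DLL1, HEYL, HES3, HES2, MFNG and DTX4, which were not well above background on 1 or 2 arrays, and time points without a second array limit every step between neighbours.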
